A study of Mus musculus with 12 samples.

Results

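The Polycomb complex genes described here are 38 mouse genes chosen by name: 11 of Polycomb repressive complex 2 (PRC2), the 2 E3 ubiquitin ligases shared by all forms of Polycomb repressive complex 1 (PRC1), 10 other subunits of canonical PRC1, 12 subunits of variant PRC1 and 3 of the Polycomb repressive deubiquitinase (PR-DUB). Of the 36521 gene rows deposited, 35 belonged to 1 of these genes alone. The rows of Cbx6, Bcor and Bcorl1 also held other gene identifiers and are described apart. The cells were V6.5 mouse embryonic stem (ES) cells grown with serum and leukaemia inhibitory factor. There were 3 groups of 4 poly(A) RNA-seq libraries: untransfected parental cells, and cells of the same line that stably express a short hairpin RNA against Tet1 (Tet1kd) or against Tet2 (Tet2kd). Tet1 and Tet2 encode dioxygenases that oxidize 5-methylcytosine. The hairpins were electroporated in a puromycin-resistance plasmid, cells were selected on SNL76/7-4 feeder cells, and single clones were picked. The labels do not say which clone gave which library, and no group carries a control hairpin, so hairpin, selection and clone cannot be told apart in either comparison.

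PRC2 methylates lysine 27 of histone H3 (H3K27) through EZH2 or its paralog EZH1, which need EED and SUZ12 for activity. PRC1 ubiquitinates histone H2A through RING1 or RNF2 (RING1B). Canonical PRC1 reads the PRC2 mark with a CBX chromodomain protein, variant PRC1 holds RYBP or YAF2 in its place, and PR-DUB removes the ubiquitin. In ES cells these complexes sit mainly at CpG-rich promoters of silent developmental regulators, and TET1 is known to occupy many of the same promoters.

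The 2 catalytic paralogs of PRC2 moved apart in the Tet1kd cells, and their promoters are shown for that reason. The 250 bases before the RefSeq start of each gene (GRCm38.p6) are printed 5′ to 3′ on the gene's strand, with CpG dinucleotides in capitals. The Ezh2 window (chr6:47595031-47595280, minus strand) holds 23 CpGs and the Ezh1 window (chr11:101226464-101226713, minus strand) holds 14.
Ezh2: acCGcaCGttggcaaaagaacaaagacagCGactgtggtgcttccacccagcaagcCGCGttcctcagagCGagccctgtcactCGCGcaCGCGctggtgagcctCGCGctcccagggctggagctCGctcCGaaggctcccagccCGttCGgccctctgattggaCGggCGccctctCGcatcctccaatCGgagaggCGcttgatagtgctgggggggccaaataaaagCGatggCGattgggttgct
Ezh1: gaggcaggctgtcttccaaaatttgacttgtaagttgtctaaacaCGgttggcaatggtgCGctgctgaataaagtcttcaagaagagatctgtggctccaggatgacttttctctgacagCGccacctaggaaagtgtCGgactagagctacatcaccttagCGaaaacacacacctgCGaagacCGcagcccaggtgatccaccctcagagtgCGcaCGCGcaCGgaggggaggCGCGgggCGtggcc

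Windows of this kind were found in RefSeq for 34 of the 38 genes, 47 windows in all. Their median was 20 CpGs, against 6 over 32841 windows of all genes. The E2F-type motifs TTTCCCGC, TTTCGCGC, TTTGCCGC and TTTGGCGC, searched on both strands, occurred in 1.86% of all windows and in 2 of the 47, those of Phf19 and Suz12. Both genes are PRC2 genes that were higher in Tet1kd cells, while the window of Ezh1, also higher, held 0 motifs. Each motif holds a CpG, and the windows of all genes are not matched for CpG number. The match describes these letters only. The capitals mark the motif in the Phf19 window (chr2:34913977-34914226, minus strand, 31 CpGs) and in the Suz12 window (chr11:79992856-79993105, plus strand, 37 CpGs).
Phf19: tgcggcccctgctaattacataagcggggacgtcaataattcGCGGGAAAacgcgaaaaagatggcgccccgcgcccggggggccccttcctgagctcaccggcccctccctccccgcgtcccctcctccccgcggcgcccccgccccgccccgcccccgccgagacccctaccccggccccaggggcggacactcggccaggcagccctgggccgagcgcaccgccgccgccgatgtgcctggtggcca
Suz12: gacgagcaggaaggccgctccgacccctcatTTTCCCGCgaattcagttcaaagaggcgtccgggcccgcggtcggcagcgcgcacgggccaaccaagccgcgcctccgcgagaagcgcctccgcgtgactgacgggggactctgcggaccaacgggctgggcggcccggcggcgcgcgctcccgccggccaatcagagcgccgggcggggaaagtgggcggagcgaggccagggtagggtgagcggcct

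Reads per library were recovered from the deposited group means, as the processing section describes, and are given as normalized reads on 1 scale for all 12 libraries. The libraries held about 14.4 M to 39.7 M gene reads. Each group had 2 deeper and 2 shallower libraries, listed in that order below. For Ezh2, Eed, Rbbp7, Aebp2, Rnf2, Cbx7 and Asxl1 in the knockdowns, and L3mbtl2 in Tet1kd, recovery had several solutions. The 1 with all libraries within 20% of their mean was taken, so their spread may be understated. In Tet1kd this 20% limit by itself places Ezh2, Eed, Rbbp7, Aebp2 and L3mbtl2 below all parental libraries. Libraries of different groups deviated together within a depth class (r across genes from 0.368 to 0.585) and apart between classes (-0.532 to -0.363). What sets the classes apart is not stated in the labels. The targeted genes followed their labels: Tet1 fell to 25.2% of its parental mean in Tet1kd cells (adjusted p = 1.19e-68) and Tet2 to 50.9% in Tet2kd cells (adjusted p = 3.08e-30), both from the authors' deposited tables (DESeq). Markers of ES cells summed to 124% of their parental level in Tet1kd cells and 102% in Tet2kd cells, with all 10 measured. By single genes in Tet1kd 5 were higher and 1, Lin28a, was lower, against 15.2% and 15.3% of all genes. In Tet2kd 1 was higher and 0 lower, against 3.85% and 3.29%. Markers of feeder fibroblasts were also present, 15 of 15 with none at 0 in any group.

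In the Tet1kd cells PRC2 genes moved in both directions. Ezh2, Aebp2, Mtf2, Phf1, Rbbp7, Eed and Jarid2 were lower than in parental cells, and Phf19, Ezh1 and Suz12 were higher. Across the 35 genes with a row of their own, 5 were higher, 14 were lower and 16 did not pass the test (the authors' deposited adjusted p from DESeq at 0.05). The background was high: 30.4% of 23120 genes tested passed, 15.2% higher and 15.3% lower, and 49.3% of genes with a mean of at least 1000 normalized reads. The median log2 change was -0.10 over the 35 genes and -0.03 over all genes. With a change of at least 1.5 times also required, 1 of the 35 was higher and 7 were lower, against 8.26% and 7.81% of all genes. By complex, PRC2 had 3 higher, 7 lower and 1 neither (median -0.39). Of the E3 ligases 1 was lower and 1 neither (median -0.29). Canonical PRC1 had 2 higher, 1 lower and 6 neither (median 0.16), variant PRC1 2 lower and 8 neither (median 0.07), and PR-DUB 3 lower of 3 (median -0.29).

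The Tet2kd cells were compared with the same parental libraries, and few of these genes passed. Phc1 was higher, Jarid2, Cbx8 and Bap1 were lower, and 31 of 35 did not pass. Over all genes 7.14% of 22949 passed (3.85% higher, 3.29% lower), and 12.8% of those with a mean of at least 1000. The median log2 change was -0.01 over the 35 genes and also over all genes. Cbx8 alone passed with a change of at least 1.5 times, against 1.49% of all genes higher and 0.989% lower.

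**Figure D1:**
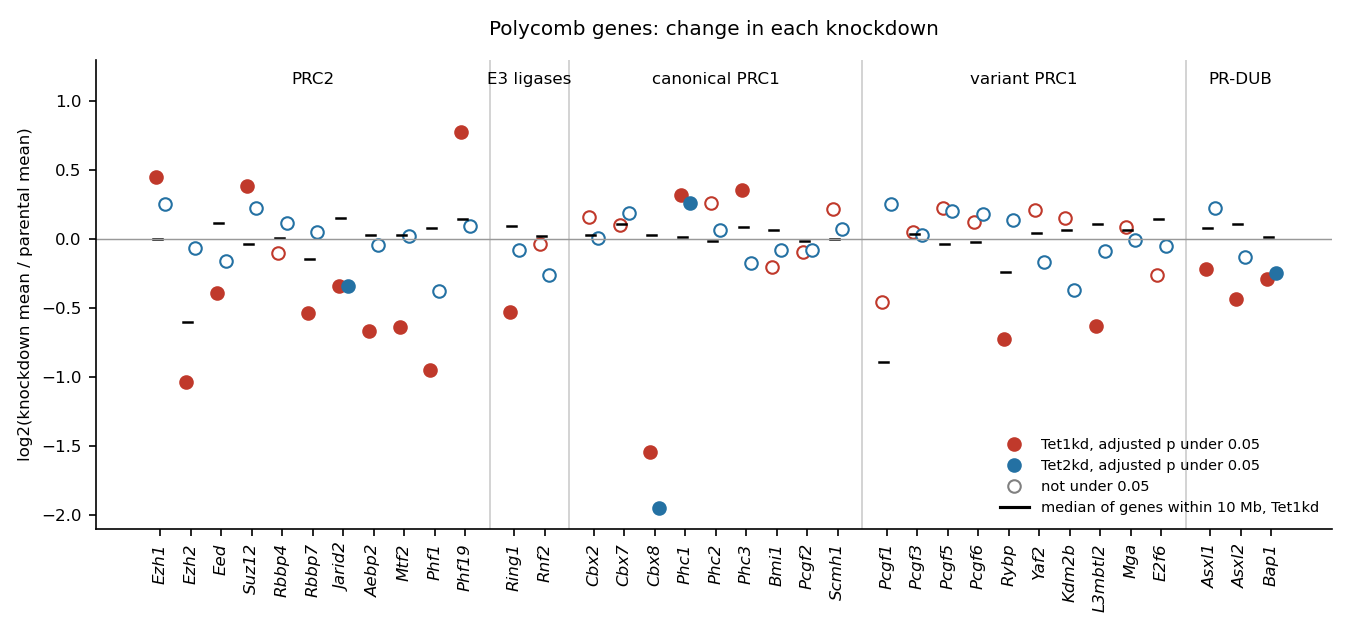
Log2 ratio of the knockdown mean to the parental mean for the 35 genes with a row of their own, by complex (red Tet1kd, blue Tet2kd; filled where the authors' deposited adjusted p is under 0.05). Short black lines give the median change, in Tet1kd, of genes within 10 Mb; it is far below 0 for Ezh2 (-0.60) and Pcgf1 (-0.89).

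Ezh2, the main H3K27 methyltransferase of dividing cells, stood at 7969, 8022, 8051 and 7585 normalized reads in the 4 parental libraries. The 4 Tet1kd libraries held 4038, 3756, 3940 and 3653, and the 4 Tet2kd libraries 7690, 7449, 7382 and 7678. Every Tet1kd library lay far below every other library. The recovery limit described above by itself placed the Tet1kd libraries below the parental ones, so that separation is not read as a result. The Tet2kd values overlapped the parental ones. The log2 change was -1.04 in Tet1kd (adjusted p = 1.84e-32) and -0.07 in Tet2kd (adjusted p = 0.814) in the authors' deposited tables (DESeq), with a limma standard error (SE) of 0.05 for each.

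Genes around Ezh2 on chromosome 6 were lower in Tet1kd cells as well. The 107 expressed genes within 10 Mb had a median log2 change of -0.60 (-0.01 in Tet2kd), so that Ezh2 lay 0.44 below them on the log2 scale. In the gene order of the chromosome, the 5 genes just before Ezh2 had a median of -1.23 and the 5 just after it -1.28. Over 25 genes the medians were -0.08 before Ezh2 and -0.79 after it, which places Ezh2 at the near edge of a shifted stretch. With the 641 expressed genes of the chromosome in 10 blocks of equal number, blocks 3 to 6 had a median of -0.85, and 220 of their 254 other genes (86.6%) were below 0. In the remaining blocks 51.3% of 382 genes were below 0 (median -0.01). The shift stood in each of the 4 Tet1kd libraries, with medians of -0.86, -0.81, -0.82 and -0.84 over the parental mean, and from 0.03 to 0.04 in the Tet2kd libraries. Its part in the lower Ezh2 count was not tested.

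**Figure D2:**
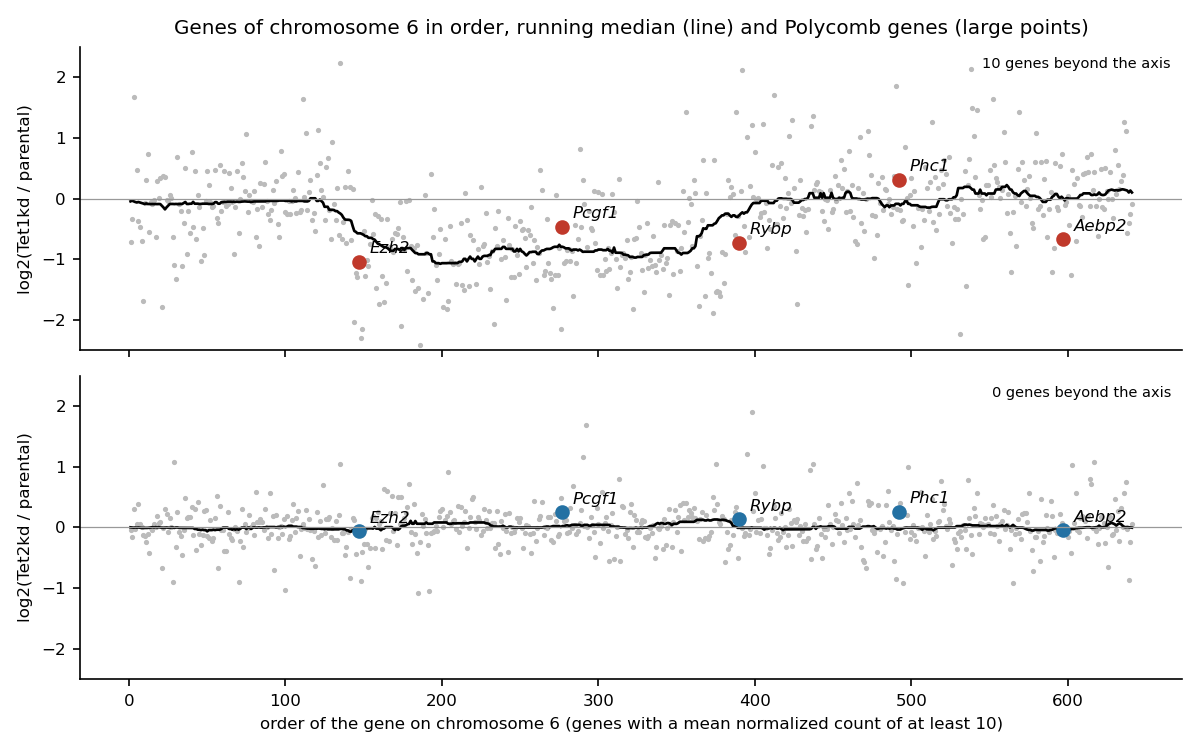
Log2 change of each expressed gene of chromosome 6 (grey) in gene order, with the running median over 25 genes on either side (line) and the 5 Polycomb genes (large points), for Tet1kd (top) and Tet2kd (bottom). The line falls to -1.07 at its lowest, near Znrf2 between Ezh2 and Pcgf1, in Tet1kd and stays near 0 in Tet2kd, and 10 genes lie beyond the axis in the top panel.

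Ezh1, the paralog with the weaker methyltransferase, went the other way. Parental libraries held 914, 1071, 1096 and 1061 normalized reads, Tet1kd libraries 1395, 1432, 1384 and 1446, and Tet2kd libraries 1181, 1243, 1311 and 1203. Neither knockdown overlapped the parental libraries, and the Tet1kd values lay above the Tet2kd values. In the authors' deposited tables (DESeq) the log2 change was 0.45 in Tet1kd (adjusted p = 6.4e-06) and 0.25 in Tet2kd (adjusted p = 0.0597), each with a limma SE of 0.06. The Tet2kd change passed in limma (adjusted p = 0.0194). Per kilobase of annotated exon, the parental mean level of Ezh2 was 1184 normalized reads and that of Ezh1 139, so Ezh2 was the more abundant transcript by this measure.

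The 2 other core subunits also moved apart. Eed, the subunit that binds the methylated histone tail, held 7685, 7584, 6740 and 6641 normalized reads in parental libraries, 5840, 5653, 5221 and 5138 in Tet1kd and 6435, 7047, 6243 and 5883 in Tet2kd. The Tet1kd libraries did not overlap the parental ones, which the recovery limit by itself fixed, and the Tet2kd libraries did. Suz12, which scaffolds the complex, held 10421, 10152, 8318 and 8614 normalized reads in parental libraries. Its reads were not recovered library by library in the knockdowns, whose means were 12210 in Tet1kd and 10958 in Tet2kd. In the authors' deposited tables (DESeq) Eed stood at -0.39 in Tet1kd (adjusted p = 1.42e-05) and stood at -0.16 in Tet2kd (adjusted p = 0.224). Suz12 stood at 0.38 in Tet1kd (adjusted p = 0.00957) and 0.22 in Tet2kd (adjusted p = 0.331) in the authors' deposited tables (DESeq).

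Of the histone-binding subunits, Rbbp7 was lower in Tet1kd cells and Rbbp4 did not pass. Rbbp7 held 7990, 7982, 6469 and 6804 normalized reads in parental libraries, 5865, 5389, 4630 and 4226 in Tet1kd and 8475, 8367, 6704 and 6763 in Tet2kd. All 4 Tet1kd values were below all parental values, which the recovery limit by itself fixed. The depth classes separated within every group. The authors' deposited table (DESeq) gives a log2 change of -0.54 (adjusted p = 0.000586) in Tet1kd for Rbbp7 and -0.10 (adjusted p = 0.393) for Rbbp4. Both genes encode very similar proteins, and the labels do not state how reads matching several genes were counted.

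The accessory subunits, which set where PRC2 binds and how active it is, moved in both directions in Tet1kd cells. Aebp2, which stimulates PRC2 together with JARID2, held 5715, 5699, 5543 and 5348 normalized reads in parental libraries, 3586, 3480, 3437 and 3540 in Tet1kd and 5565, 5597, 5047 and 5417 in Tet2kd. The Tet1kd values of Aebp2 lay below all others. The recovery limit described above bounded their spread and by itself placed them below the parental libraries. Neither their narrow spread nor that separation is therefore read as a result. Aebp2 also lies on chromosome 6, outside the shifted stretch: genes within 10 Mb had a median of 0.03 in Tet1kd, while that of Aebp2 itself was -0.67 (DESeq, adjusted p = 4.39e-14, from the authors' deposited table). Jarid2, which recruits PRC2, was lower by nearly the same amount in both knockdowns, -0.34 in Tet1kd (adjusted p = 0.000235) and -0.34 in Tet2kd (adjusted p = 0.000614) in the authors' deposited tables (DESeq).

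The 3 Polycomb-like proteins MTF2, PHF1 and PHF19, which carry a Tudor domain and guide PRC2 to CpG-rich DNA, did not move together. Mtf2 held 14866, 14914, 13577 and 13357 normalized reads in parental libraries, with means of 9115 in Tet1kd and 14349 in Tet2kd. Phf1 held 138, 136, 154 and 176 in parental libraries, 69.0, 83.2, 71.0 and 89.7 in Tet1kd and 123, 96.3, 117 and 128 in Tet2kd. Both knockdowns lay below the parental libraries for Phf1, with Tet1kd lowest. Phf19 held 144, 166, 171 and 167 in parental libraries, 233, 281, 293 and 303 in Tet1kd and 175, 158, 163 and 196 in Tet2kd. Only its Tet1kd libraries stood apart from the other groups. In Tet1kd the authors' deposited table (DESeq) gives log2 changes of -0.64 for Mtf2 (adjusted p = 5.92e-13), -0.95 for Phf1 (adjusted p = 6.16e-06) and 0.78 for Phf19 (adjusted p = 2.33e-06). In Tet2kd it gives 0.02 for Mtf2 (adjusted p = 1), -0.38 for Phf1 (adjusted p = 0.284) and 0.10 for Phf19 (adjusted p = 0.912), again from the authors' deposited table (DESeq). Per kilobase of exon the parental mean of Mtf2 was 2488 normalized reads, against 43.3 for Phf1 and 32.1 for Phf19.

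**Figure D3:**
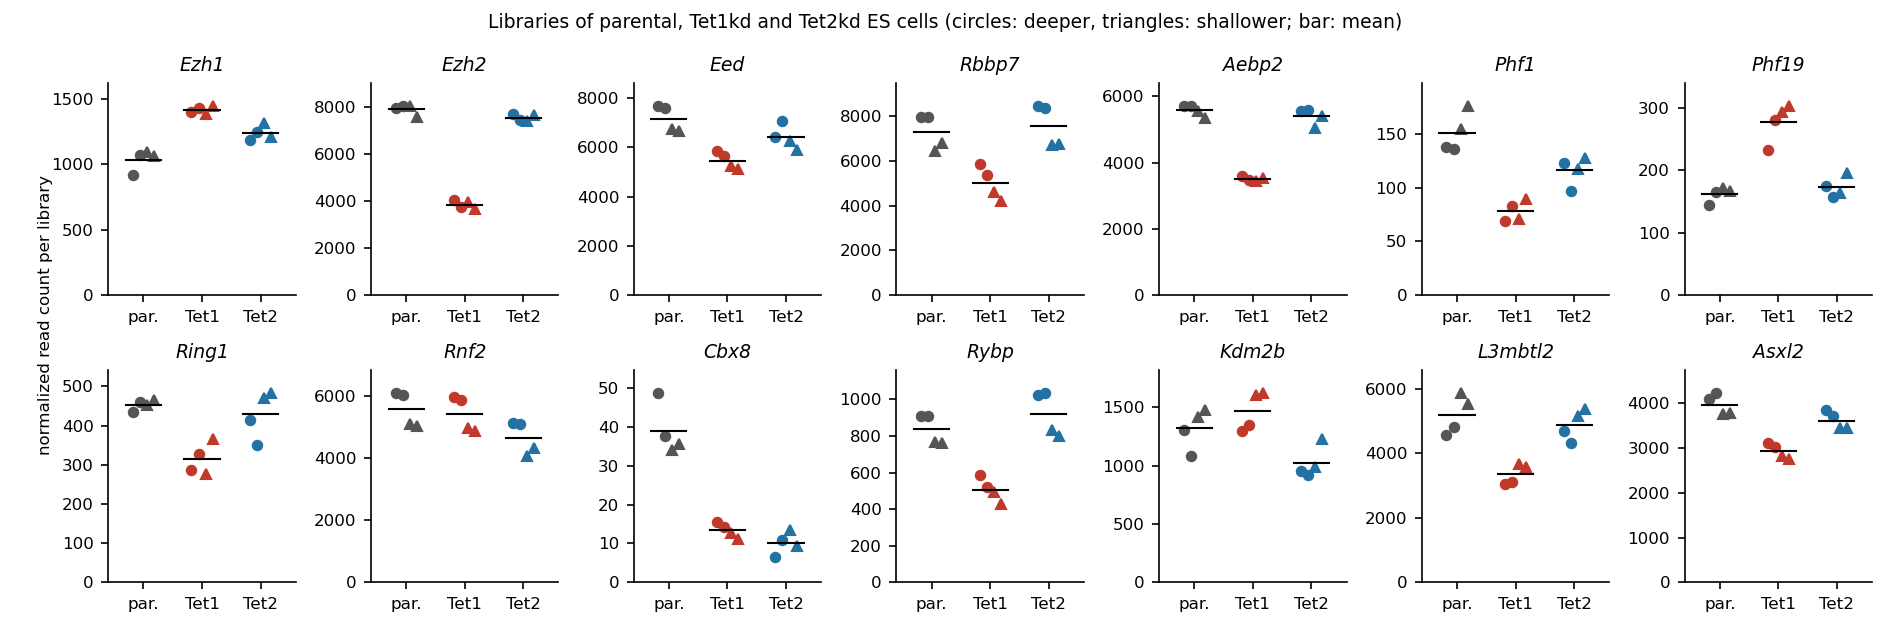
Normalized reads in each library for the 14 genes given in full whose reads were recovered in all groups (par., parental; Tet1, Tet1kd; Tet2, Tet2kd; circles, deeper libraries; triangles, shallower ones; bar, mean of 4). The Ezh2 and Aebp2 points of Tet1kd cells lie below all others, and the recovery limit by itself places them below the parental points. The depth classes separate within every group for Eed, Rbbp7, Rnf2, Rybp and Asxl2, with the deeper libraries higher. They also do for Kdm2b and L3mbtl2, with the shallower libraries higher.

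Among the E3 ligases of PRC1, the less abundant paralog was lower in Tet1kd cells. Ring1 held 434, 460, 453 and 466 normalized reads in parental libraries, 286, 327, 277 and 366 in Tet1kd and 415, 350, 470 and 483 in Tet2kd. The Tet1kd values lay below the parental ones without overlap, and the Tet2kd values overlapped them. Rnf2, the main ligase of ES cells, held 6108, 6040, 5104 and 5058 in parental libraries, 5971, 5868, 4973 and 4877 in Tet1kd and 5124, 5100, 4068 and 4342 in Tet2kd. Its groups overlapped, and within each depth class the Tet2kd values of Rnf2 were the lowest. The authors' deposited tables (DESeq) give log2 changes of -0.53 for Ring1 in Tet1kd (adjusted p = 5.06e-05) and -0.26 for Rnf2 in Tet2kd (adjusted p = 0.196). Limma gave an adjusted p of 0.122 for Rnf2 in Tet2kd. With the depth class as a term, chosen after seeing the data, limma gave 0.000322. The recovery limit bounded the spread of Rnf2 in the knockdowns. The share of all genes that pass with that term is not given here, so no fall of Rnf2 is read from it. Per kilobase the parental mean was 1351 normalized reads for Rnf2 and 140 for Ring1.

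Of the canonical PRC1 genes, Cbx8 showed the largest change and was lower in both knockdowns. Its counts were small: 48.7, 37.6, 34.0 and 35.5 normalized reads in parental libraries, 15.4, 14.3, 12.7 and 11.0 in Tet1kd and 6.51, 11.0, 13.3 and 9.35 in Tet2kd. No knockdown library reached the parental range. The authors' deposited tables (DESeq) give -1.54 in Tet1kd (adjusted p = 0.000206) and -1.95 in Tet2kd (adjusted p = 2.62e-05), with a limma SE of 0.20. The CBX proteins read H3K27 methylation, and Cbx8 was the least abundant of those with a row of their own. Per kilobase the parental means were 742 normalized reads for Cbx7, 175 for Cbx2 and 10.6 for Cbx8. Cbx7, the CBX protein that prevails in ES cells, stood at 0.10 in Tet1kd (adjusted p = 0.371) and 0.18 in Tet2kd (adjusted p = 0.169) in the authors' deposited tables (DESeq).

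The Polyhomeotic subunits, which polymerize through a SAM domain, were higher or did not pass. Phc1 rose in both knockdowns, by 0.31 (log2) in Tet1kd (adjusted p = 0.000556) and 0.26 in Tet2kd (adjusted p = 0.0168) in the authors' deposited tables (DESeq). Its parental libraries held 18786 to 19488 normalized reads, and the knockdown means were 23801 in Tet1kd and 22857 in Tet2kd. Phc3 held 596 to 715 normalized reads in parental libraries, 727 to 914 in Tet1kd and 518 to 620 in Tet2kd, a log2 change of 0.35 in Tet1kd (adjusted p = 0.00343) in the authors' deposited table (DESeq). Per kilobase the parental mean of Phc1 was 3612 normalized reads, the highest of the 35 genes, against 136 for Phc2 and 37.1 for Phc3. The PCGF subunits of canonical PRC1, Pcgf2 and Bmi1, stood at -0.09 and -0.21 in Tet1kd (adjusted p = 0.446 and 0.58) in the authors' deposited table (DESeq). Scmh1 and Phc2 stood at 0.21 and 0.26 there, also without passing. In limma Scmh1 passed in Tet1kd (adjusted p = 0.0244) and Phc2 did not (adjusted p = 0.0597).

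Among variant PRC1 genes, Rybp and L3mbtl2 were lower in Tet1kd cells and the other 8 did not pass the deposited test. Rybp, which takes the place of the CBX subunit, held 912, 910, 769 and 760 normalized reads in parental libraries, 586, 523, 493 and 428 in Tet1kd and 1022, 1035, 832 and 798 in Tet2kd. The Tet1kd libraries lay below all parental libraries, while those of Tet2kd overlapped them. The log2 change was -0.72 in Tet1kd (adjusted p = 5.29e-08) and 0.14 in Tet2kd (adjusted p = 0.671) in the authors' deposited tables (DESeq). Rybp lies on chromosome 6 past the far end of the shifted stretch, with a median of -0.24 over genes within 10 Mb. The 25 genes before it had a median of -0.62, the 5 just before it 0.07 (from -0.60 to 1.44) and the 5 just after it 0.13 (from -0.87 to 2.12). Its nearest neighbours thus lay on both sides of 0, and the part of the stretch in the lower Rybp count was not tested. Yaf2, the paralog of Rybp, stood at 0.21 in Tet1kd (adjusted p = 0.689) in the authors' deposited table (DESeq).

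L3mbtl2, a subunit with MBT repeats found in the PCGF6 complex, held 4579, 4814, 5876 and 5540 normalized reads in parental libraries, 3065, 3112, 3677 and 3593 in Tet1kd and 4685, 4321, 5161 and 5366 in Tet2kd. The recovery limit by itself placed its Tet1kd libraries below the parental ones, and its Tet2kd libraries overlapped them. The log2 change was -0.63 in Tet1kd (adjusted p = 5.1e-06) and -0.09 in Tet2kd (adjusted p = 0.903) in the authors' deposited tables (DESeq). The other PCGF6 partners Pcgf6, Mga and E2f6 stood at 0.12, 0.09 and -0.26 in Tet1kd in the authors' deposited table (DESeq), with adjusted p of 0.4, 0.588 and 0.0785. In limma E2f6 passed in Tet1kd (adjusted p = 0.007). Kdm2b, which brings variant PRC1 to unmethylated CpG islands, held 1310, 1081, 1419 and 1474 normalized reads in parental libraries, 1299, 1344, 1608 and 1622 in Tet1kd and 952, 917, 992 and 1230 in Tet2kd. Both knockdowns overlapped the parental libraries of Kdm2b, and all Tet2kd values lay below all Tet1kd values. Within each depth class, both Tet2kd values of Kdm2b were below both parental values. The authors' deposited tables (DESeq) give 0.15 in Tet1kd (adjusted p = 0.493) and -0.37 in Tet2kd (adjusted p = 0.113). Limma gave an adjusted p of 0.0688 for Kdm2b in Tet2kd. With the depth class as a term, chosen after seeing the data, limma gave 0.00552. The share of all genes that pass with that term is not given here.

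Pcgf1, the PCGF subunit of the KDM2B complex, lies inside the shifted stretch of chromosome 6. Its libraries held 74.8 to 88.5 normalized reads in parental cells, 54.1 to 65.9 in Tet1kd and 71.2 to 121 in Tet2kd, so that Tet1kd and parental values did not overlap. The change of -0.46 did not pass in the authors' deposited table (DESeq, adjusted p = 0.101) and passed in limma (adjusted p = 0.0378). Genes within 10 Mb had a median of -0.89. The 32 genes other than Ezh2, Pcgf1 and Rybp had neighbours with medians from -0.14 to 0.15 in Tet1kd. Among the genes given in full these were -0.14 for Rbbp7, -0.04 for Suz12, 0.02 for Rnf2, 0.03 for Mtf2, Cbx8 and Aebp2, 0.07 for Kdm2b and 0.08 for Phf1. They were 0.09 for Ring1, 0.10 for L3mbtl2, 0.11 for Asxl2, 0.12 for Eed and 0.15 for Phf19, and -0.004 for Ezh1. In Tet2kd the medians ran from -0.04 to 0.12 over all 35 genes.

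All 3 PR-DUB genes were lower in Tet1kd cells. Asxl2, which activates the deubiquitinase, held 4086, 4225, 3758 and 3775 normalized reads in parental libraries, 3108, 3022, 2825 and 2750 in Tet1kd and 3845, 3715, 3445 and 3437 in Tet2kd. The Tet1kd values of Asxl2 did not reach the parental range. The authors' deposited table (DESeq) gives -0.44 in Tet1kd for Asxl2 (adjusted p = 3.26e-06), -0.29 for the catalytic subunit gene Bap1 (adjusted p = 0.00492) and -0.22 for Asxl1 (adjusted p = 0.0363). In Tet2kd Bap1 was lower, at -0.25 (adjusted p = 0.043), and Asxl1 stood on the other side of 0, at 0.22 (adjusted p = 0.0716), in the authors' deposited table (DESeq). In limma Asxl1 passed in both knockdowns, lower in Tet1kd (adjusted p = 0.00194) and higher in Tet2kd (adjusted p = 0.00737). Recovery may understate its spread there. The libraries of Asxl1 did not overlap between any 2 of the groups: 4793 to 5007 normalized reads in parental cells, 4122 to 4374 in Tet1kd and 5473 to 5902 in Tet2kd.

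Over the 29 genes with reads in all libraries, the Tet1kd and parental libraries did not overlap for 18, against 48.8% of all genes with a mean of at least 10. For Tet2kd it was 5 of 30, against 23.2%. In Tet1kd the recovery limit fixed the separation from parental libraries for Ezh2, Eed, Rbbp7, Aebp2 and L3mbtl2, as said above. All 15 genes that passed in Tet1kd and had recovered libraries had the same direction within the deeper and within the shallower libraries, as did the 2 in Tet2kd. The calls come from those libraries, and the same held for 100% of the 6554 and 1567 genes of all kinds that passed and had recovered libraries and a mean of at least 10, so nothing about these genes is read from it.

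In the 3 joined rows the partner genes cannot be separated from the Polycomb gene. The row of Bcorl1 held 174 to 220 normalized reads in parental libraries and 631 to 807 in Tet1kd, a log2 change of 1.78 (adjusted p = 2.91e-33) in the authors' deposited table (DESeq). In Tet2kd that row held 155 to 176. The row of Bcor, a corepressor of the PCGF1 complex, stood at 0.38 in Tet1kd (adjusted p = 7.6e-05), and that of Cbx6, joined with Npcd and Nptxr, at 0.24 (adjusted p = 0.0206) in the authors' deposited table (DESeq). In Tet2kd the adjusted p was 0.347 for Bcorl1, 0.482 for Bcor and 0.661 for Cbx6 in that table (DESeq).

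The knockdowns were then compared with each other directly, because both comparisons above share the parental libraries. In limma over all 12 libraries, 16 of 29 genes differed between Tet1kd and Tet2kd (Benjamini-Hochberg adjusted p at 0.05), 4 higher and 12 lower in Tet1kd. Of all 14585 genes tested 49.1% differed, 24.8% higher and 24.3% lower. The largest difference was that of Ezh2, at -0.97 on the log2 scale (SE 0.05, 95% interval -1.08 to -0.87, limma adjusted p = 9.71e-08). Rybp differed by -0.86 (SE 0.12), Pcgf1 by -0.67 (SE 0.17), Aebp2 by -0.62 (SE 0.05), Rbbp7 by -0.59 (SE 0.13) and Phf1 by -0.57 (SE 0.12). L3mbtl2 (-0.54), Ring1 (-0.45), Asxl1 (-0.44), Asxl2 (-0.30), Eed (-0.23) and E2f6 (-0.22) were lower too. Phf19 (0.68, SE 0.10), Phc3 (0.53, SE 0.09), Kdm2b (0.52, SE 0.13) and Ezh1 (0.20, SE 0.06) were higher in Tet1kd.

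For several genes the 2 knockdowns were not told apart. The interval of the log2 difference was -0.12 to 0.10 for Pcgf2, -0.09 to 0.14 for Pcgf3, -0.16 to 0.09 for Bap1 and -0.25 to 0.09 for Cbx7. It was wide for the low counts of Cbx8 (-0.01 to 0.86) and Bmi1 (-0.54 to 0.32). By complex, 7 of 7 PRC2 genes with recovered libraries differed (2 higher, 5 lower in Tet1kd). So did 1 of 2 E3 ligase genes, 1 of 8 canonical PRC1 genes, 5 of 9 variant PRC1 genes and 2 of 3 PR-DUB genes. The share was 49.1% over all genes with a mean of at least 10, which are not matched for abundance. Suz12, Rbbp4, Jarid2 and Mtf2 were not recovered, so 7 of 7 does not describe all of PRC2. For Ezh2, Eed, Rbbp7 and Aebp2 recovery may understate the spread, and with it the SE of their differences.

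**Figure D4:**
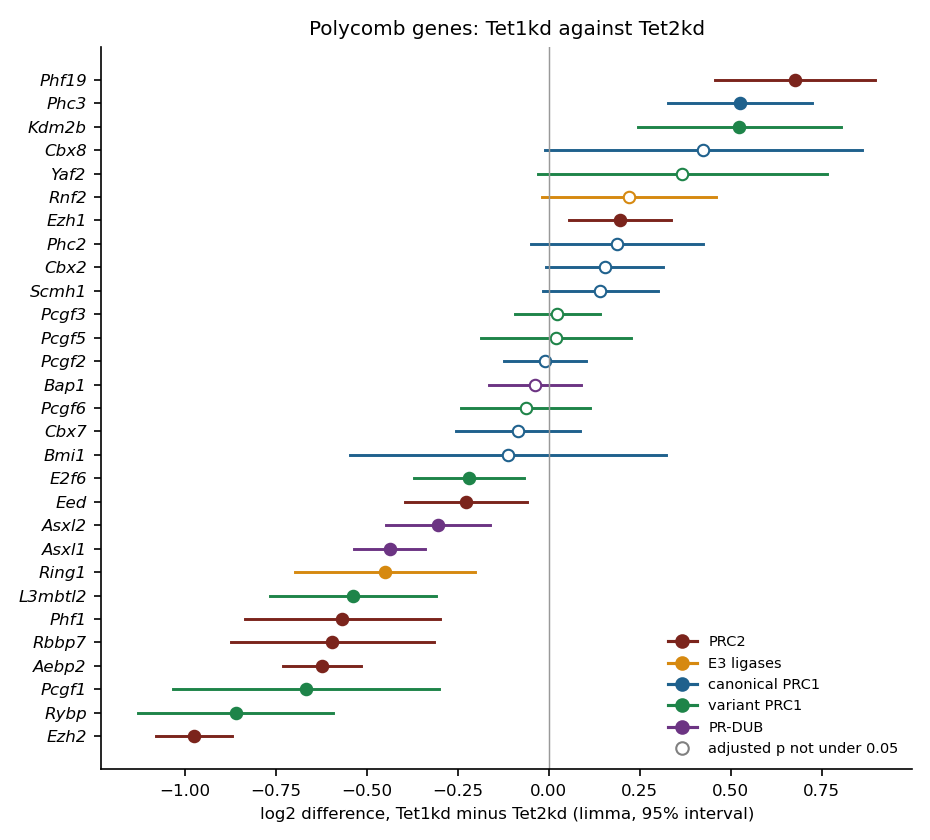
Log2 difference between Tet1kd and Tet2kd cells for the 29 genes with reads in all 12 libraries (points, limma estimates; lines, 95% intervals; filled, adjusted p under 0.05), coloured by complex. Ezh2 is lowest, at -0.97, and Phf19 highest, at 0.68.

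Exon use, the share of a gene's reads that falls in each exon bin, was tested by the authors with DEXSeq. Of 777 bins tested in the 35 genes, 40 (5.15%) in 15 genes passed in Tet1kd, 18 used more and 22 less. In Tet2kd 48 of 774 bins (6.2%) passed, also in 15 genes, 20 used more and 28 less. Over all bins 2.56% passed in Tet1kd (1.15% more, 1.41% less) and 2.45% in Tet2kd (1.07% more, 1.38% less), and among bins with a mean of at least 100 reads 7.5% and 8.32%. The deposited sizes do not state their scale, so directions and adjusted p-values are given, and the positions of the bins were not used here. PRC2 genes held 22 of the 40 bins in Tet1kd and 27 of the 48 in Tet2kd, and 39.8% and 39.9% of the bins tested. Of their own tested bins 7.12% and 8.74% passed, near the shares of all bins with a mean of at least 100.

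Bins listed at an adjusted p of 0 lay in Jarid2, Mtf2, Asxl2 and Cbx7 in Tet1kd and in Phc1 and Rbbp4 in Tet2kd (authors' deposited tables, DEXSeq). Bins 18 and 19 of Jarid2 were used less in both knockdowns, at adjusted p of 0 in Tet1kd and 1.07e-07 and 2.58e-13 in Tet2kd in the authors' deposited tables (DEXSeq, where 0 is the value listed). Those 2 bins averaged 622 and 346 reads in the Tet1kd comparison. Bins 43 and 56 of Jarid2 were used more in Tet1kd (adjusted p = 2.52e-05 and 0.0388) in the authors' deposited table (DEXSeq). In Tet2kd bin 56 was used more as well (DEXSeq, adjusted p = 5.1e-05), and bin 43 did not pass (adjusted p = 0.2). Bins 7, 9, 11 and 12 of Mtf2 were used more in Tet1kd (adjusted p = 0 for bin 9 and from 3.96e-06 to 0.000161 for the others) and did not pass in Tet2kd (adjusted p from 0.404 to 0.988) in the authors' deposited tables (DEXSeq). The gene itself fell in Tet1kd, so these bins kept a larger share of a smaller total. Bin 1 of Aebp2 was used less in Tet1kd (adjusted p = 1.21e-10) and not in Tet2kd (adjusted p = 0.572), as was bin 15 of Cbx7 (adjusted p = 0 and 0.446), in the authors' deposited tables (DEXSeq). These contrasts between the knockdowns were not tested for bins.

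Bin 9 of Asxl2 was used more in both knockdowns, at adjusted p of 0 in Tet1kd and 0.0236 in Tet2kd in the authors' deposited tables (DEXSeq). Bin 21 of Suz12 was used less in both (adjusted p = 5.28e-05 and 3.06e-12), and bin 55 of Mga more in both (adjusted p = 0.00018 and 8.61e-09), in the authors' deposited tables (DEXSeq). In Tet2kd bin 17 of Phc1 and bin 12 of Rbbp4 were used less (adjusted p = 0 for each), as was bin 17 of Pcgf2 (adjusted p = 5.73e-07), in the authors' deposited table (DEXSeq).

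**Figure D5:**
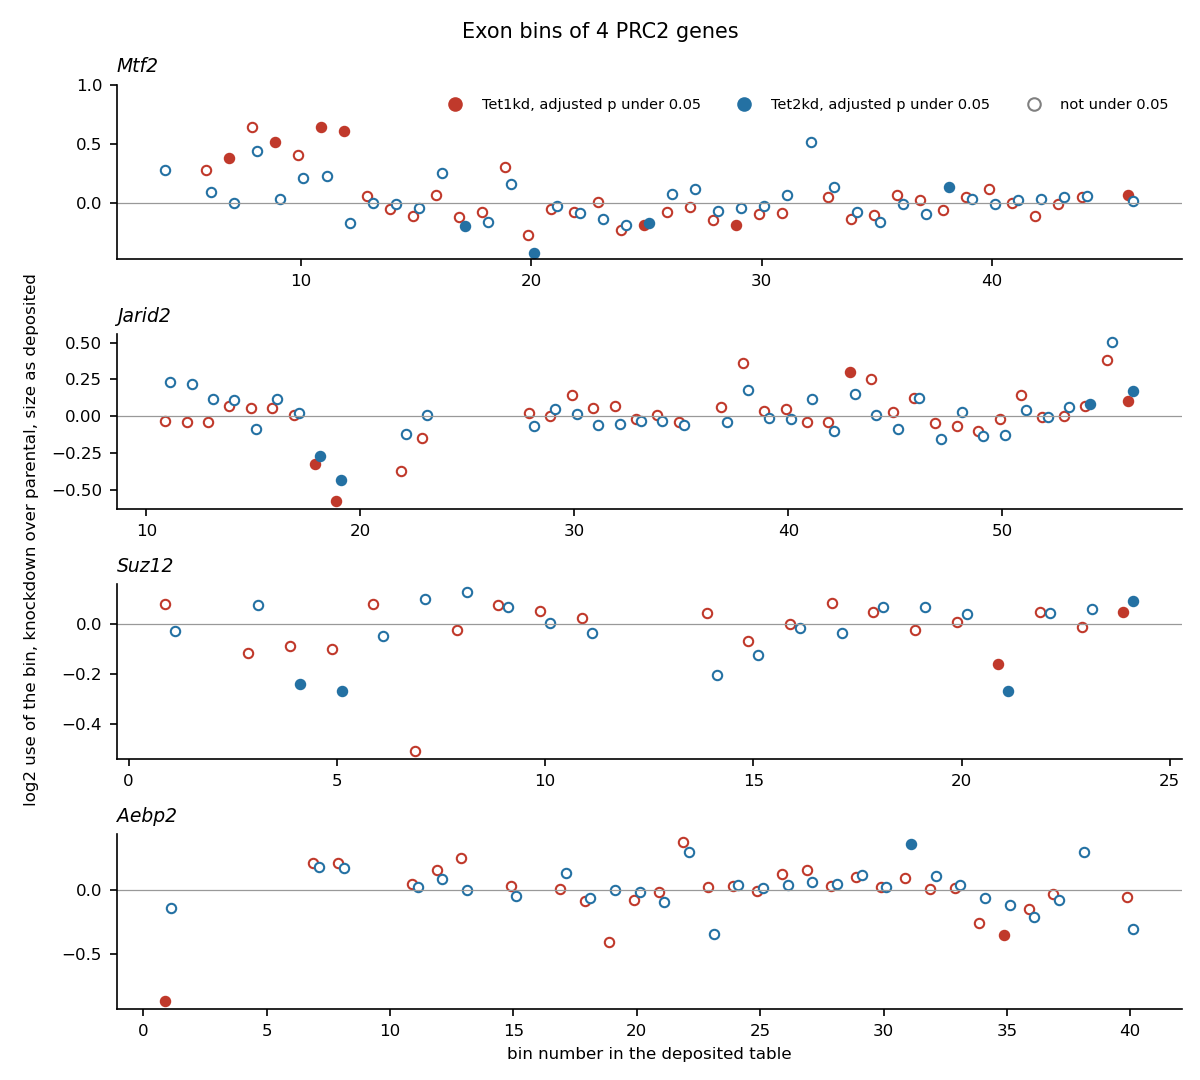
Log2 use of each exon bin with a mean of at least 10 reads, knockdown over parental, for 4 PRC2 genes in the order of the bins in the deposited table (red Tet1kd, blue Tet2kd; filled where the adjusted p is under 0.05; sizes on the deposited scale). Bins 18 and 19 of Jarid2 lie below 0 in both knockdowns, and bins 7, 9, 11 and 12 of Mtf2 lie above 0 in Tet1kd.

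Genes that work beside these complexes were followed through lists of named genes. Of 37 partner genes of Polycomb complexes measured, 5 were higher and 11 lower in Tet1kd, and 2 higher and 6 lower in Tet2kd. The shares over all genes were 15.2% higher and 15.3% lower in Tet1kd, and 3.85% and 3.29% in Tet2kd. Of 5151 genes with a mean of at least 1000, 1110 were higher and 1427 lower in Tet1kd. In Tet2kd 272 and 346 of 4838 such genes were. Epop, an elongin-binding PRC2 partner, was lower in Tet1kd with a log2 change of -0.83 (adjusted p = 6.71e-17), and Cbx3, the HP1 protein of the PCGF6 complex, with one of -1.34 (adjusted p = 4.35e-11) in the authors' deposited table (DESeq). Cbx3 lies inside the shifted stretch of chromosome 6, where the running median was -0.84, and is the 1 partner gene found there. The part of the stretch in its fall was not tested. Lcorl, the gene of another PRC2 partner, rose in both knockdowns, by 1.03 (adjusted p = 1.75e-13) and 0.44 (adjusted p = 0.012) in the authors' deposited tables (DESeq). Of 30 H3K27 demethylase and Trithorax-group genes, which oppose Polycomb silencing, 5 were higher and 8 lower in Tet1kd, and 2 higher and 1 lower in Tet2kd. Over all genes 30.4% and 7.14% passed in either direction, and 49.3% and 12.8% of those with a mean of at least 1000. Most genes of both lists are abundant, so neither count is read as an excess. The demethylase gene Kdm6a fell by 0.41 in Tet1kd (adjusted p = 2.08e-05), and its paralog Kdm6b rose by 0.34 in Tet2kd (adjusted p = 0.0268) in the authors' deposited tables (DESeq).

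Textbook targets of Polycomb in ES cells, mostly developmental transcription factors, were low in count. Of 101 tested, 4 were higher and 25 lower in Tet1kd, against 15.2% and 15.3% of all genes. Their median log2 change was -0.90, against -0.03 over all genes, and -0.81 over the 44 with a mean of at least 10. Their summed means were nearly equal, 4757 normalized reads in parental cells and 4765 in Tet1kd. The shifted stretch of chromosome 6 held 10 of the targets, of which 5 were lower in Tet1kd, and the 91 elsewhere had 20 lower, 4 higher and a median of -0.89. In Tet2kd 6 were higher and 5 lower (median 0.19), against 3.85% and 3.29% of all genes. Those that fell in Tet1kd included Pax6 (log2 change -4.09, adjusted p = 1.2e-40), T or Brachyury (-3.63, adjusted p = 4.79e-39) and Hoxc13 (-2.36, adjusted p = 5.98e-16) in the authors' deposited table (DESeq). The neural factors Olig2 and Olig1 rose by 1.36 and 0.97 (adjusted p = 3.76e-35 and 2.19e-21), and Eomes by 0.79 (adjusted p = 1.87e-11), in the authors' deposited table (DESeq). In Tet2kd T rose by 0.87 (adjusted p = 1.27e-06) and Lhx1 by 2.84 (adjusted p = 5.67e-08), while Gata6 fell by 1.54 (adjusted p = 4.74e-10), in the authors' deposited table (DESeq).

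The summed markers of other cell types lay below the parental level in Tet1kd for 3 lists and above it for 2. Of the marker lists, 5 of 8 endoderm, 3 of 5 neural, 4 of 6 mesoderm and 2 of 6 trophectoderm genes are also in the target list, and 0 of 15 feeder fibroblast genes. Feeder fibroblast markers fell in 13 of 15 genes in Tet1kd, against 15.3% of all genes lower. In Tet2kd 5 were higher, 2 lower and 8 neither (median log2 change 0.08), against 3.85% and 3.29% of all genes. Their sum was 6832 to 7232 normalized reads in parental libraries, 3820 to 4134 in Tet1kd and 8544 to 9053 in Tet2kd. Endoderm markers summed to 52.1% of the parental level in Tet1kd and 57.2% in Tet2kd, with 1 of them at 0 in parental cells, and neural markers, none at 0, to 59.3% and 94%. Mesoderm markers summed to 125% in Tet1kd and 100% in Tet2kd, with 1 of them at 0 in Tet2kd, and trophectoderm markers, none at 0, to 114% and 121%. By single genes in Tet1kd, 1 mesoderm marker was higher and 2 lower of 6 tested, and 1 trophectoderm marker higher and 3 lower of 5. In such bulk samples fewer cells of a type and less RNA per cell cannot be told apart, and the part of these markers in the list's change was not tested.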

How the data were processed

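Poly(A) RNA-seq libraries were made in 12 samples on the SOLiD platform, per the labels' protocols. The submitters' processing notes name TopHat2 2.0.0, SAMtools 0.1.18 and DESeq, and the builds mm9 and NCBIM37; no counter is named there. The authors deposited, for each knockdown against parental cells, a gene table with the signal of each group, which is reads per gene divided by library size factors and averaged (normalized counts), fold changes as a ratio and as log2, and raw and adjusted p-values from 2 tests, and an exon-bin table with a mean count, a log2 use, a dispersion score and adjusted p-values. The first adjusted p of the deposited gene tables, at 0.05, was the main test, and the deposited exon p-values were used as they stand. The names, chromosomes, gene order and exon lengths come from GENCODE M21 (GRCm38), with 31278 of 36521 rows matched to a symbol; 905 rows join several genes.

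The means carry enough digits to find the whole reads of the 4 libraries behind each by lattice reduction. This gave reads for 21982 of 22004 parental, 21207 of 21658 Tet1kd and 21072 of 21368 Tet2kd genes, or 99.98%, 70.0% and 75.0% of normalized reads. Of 42104 parental values found from 1 table alone, 42102 matched those found from both. Totals per library were 14.6 M to 31.6 M reads in parental cells, and an estimated 15.8 M to 39.7 M in Tet1kd and 14.4 M to 31.1 M in Tet2kd. The libraries (a to d within a group, from the largest size factor) could not be tied to the replicate numbers. The labels call them biological replicates without saying whether cultures or clones were separate, so p-values measure the spread between these libraries. The Tet2kd values were multiplied by 1.089 to stand on the scale of the Tet1kd table. Knockdown means above 25000 were not solved, and where several solutions within 60% of the mean existed, the only one within 20% was taken. Suz12, Rbbp4, Jarid2, Mtf2 and Phc1 (both knockdowns) and Mga (Tet1kd) stayed unsolved, and are given by group means.

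Tet1kd and Tet2kd were compared with limma 3.58.1 (R 4.3.3) on log2(normalized count + 0.5) of genes with a mean of at least 10. It was also run on simulated counts that had no depth classes and no recovery step. That run therefore does not show how limma performs on these libraries. As the tables hold no counts per sample, edgeR was not used. Genes were given in full when past the test in either comparison with a change of at least 1.3 times, beside 8 core genes. Only some of the exon bins that passed were named, not always those with the smallest adjusted p. Of the other gene lists, at most 4 genes with the smallest adjusted p per comparison and direction were named. A Polycomb target gene within that rule is not reported here. The genes and lists were chosen with earlier results of these data known.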

Additional observations from a re-analysis of the deposited data

How the results depend on the processing

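No called result changed direction under the alternatives run. In Tet1kd, 11 genes were higher with the second deposited test in place of the first 5. With a change of at least 1.5 times required, 1 was higher and 7 lower, and with joined rows counted (chosen after seeing the data) 8 were higher. Among the 29 genes with recovered libraries, 3 higher and 12 lower by the deposited test, limma with the depth class as a term (also chosen after seeing the data) gave 7 higher. Leaving out each library in turn gave 3 to 5 higher and 13 to 14 lower, with 5 higher without parental library b or c. In Tet2kd the second test gave 7 higher and 7 lower in place of 1 and 3, adjusting anew after a minimum mean of 10 gave 3 higher, and a change of at least 1.5 times left 0 and 1. Among genes with recovered libraries, 0 higher and 2 lower by the deposited test, limma gave 2 higher, the depth class term 5 higher and 7 lower, and leaving out each library 1 to 2 higher and 2 to 3 lower. Of the exon bins 24 passed in Tet2kd at an adjusted p of 0.01. Between the knockdowns the depth class term gave 7 genes higher in Tet1kd in place of 4, and leaving out libraries 3 to 5 higher and 10 to 12 lower. Except for the change of at least 1.5 times, shares over all genes under these alternatives are not given here. The counts are therefore not set against a background. The cause of these moves was not tested. Ezh1 in Tet2kd passed by limma (adjusted p = 0.0194) and did not without Tet2kd library c. Eed, Phf1, Rnf2, Asxl2 and Kdm2b in Tet2kd passed in limma only with the depth class term (adjusted p = 0.0105, 0.0241, 0.000322, 0.00738 and 0.00552), except that Kdm2b also passed without parental library b (0.0337) or Tet2kd library d (0.0325). Relative to genes within 10 Mb, Ezh2 in Tet1kd stood at -0.44. No paired analysis was possible because the deposited columns carry no replicate numbers. Depth limits Cbx8, Pcgf1, Bmi1, Phf1 and Phf19, the genes of lowest count.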
